A study of Mus musculus with 2 samples.

Results

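Serotonin is made from tryptophan by a tryptophan hydroxylase, which adds a hydroxyl group and sets the rate, and by the decarboxylase Ddc. Tph1 is the hydroxylase of peripheral tissues such as gut enterochromaffin cells, mast cells and the pineal gland, and Tph2 is the form of serotonergic neurons of the brain stem. Vesicular transporters load the product into granules, the plasma membrane transporter Slc6a4 takes it back up, and the monoamine oxidases break it down. In fat, serotonin made in the periphery is known to act on adipocytes through receptors such as Htr2a and Htr2b.

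This account covers 10 genes of that pathway, chosen by the difference of Tph2 between these same 2 arrays, to show whether the others stood with it. They are the synthesis genes Tph1, Tph2 and Ddc, the breakdown genes Maoa and Maob, the transport genes Slc6a4, Slc18a1 and Slc18a2, and the receptors Htr2a and Htr2b. Probe sets that name a member as their only gene were used, which gave 13 probe sets for 9 of the 10 genes, out of 18193 genes and 45101 probe sets in all. Htr2a had no such probe set and was not analysed here.

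The adipose tissue came from mice of the inbred strain C57BL/6 kept on either CE-2 chow (normal diet) or HFD32 (high fat diet) from week 6 to week 18 of age. One Affymetrix array was run per diet, each on RNA pooled from 3 animals, so there is no replicate, no test between diets and no spread between animals. No allele or agent other than the diet is named, and neither fat depot nor sex is stated in the labels. Adipocyte markers were bright on both arrays, with Adipoq, the adipokine adiponectin, at 14.21 and 14.12 and Fabp4, the fatty acid binding protein of adipocytes, at 14.24 and 14.21.

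Levels are log2 signals, given for the normal diet array first, and a difference is high fat minus normal diet, so that 1 is a 2-fold ratio. Background was read from 83 probe sets of olfactory, vomeronasal and taste receptor genes, which fat is not expected to express, and its 95th percentile was 4.92 with the normal diet and 4.95 with the high fat diet. A ratio whose dimmer level fell under this value was taken against it and is written as at least. The only error at hand is the SD between probe sets of 1 gene, 0.27 on the log2 scale over 5131 genes. It was taken from probe sets with a mean level at or above 5.44, the median of all probe sets other than controls. It covers the probes and not the animals, and does not cover dimmer probe sets. In bulk tissue, fewer cells of a type and less RNA per cell cannot be told apart.

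Tph2 stood alone among the members. Its single probe set (1435314_at) read 3.36 with the normal diet, under background, and 10.38 with the high fat diet, a ratio of at least 44.1. That bound was 23.3 with crystallin, hair keratin-associated and photoreceptor genes as background, a comparison chosen after seeing the data. The plain difference of 7.02 was 5.46 with the normal diet level raised to background. The levels and the difference of Tph2 led to the choice of these genes and are a description.

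The other 8 measured members had differences between -1.47 and 0.98. Of the 9 members, 4 were higher and 5 lower with the high fat diet, at a median difference of -0.20, and of -0.21 without Tph2, against 0.03 over all genes. By the plain difference, 1 member was 2-fold higher (Tph2) and 1 lower (Ddc), where 2.63% of all 18193 genes were higher by that much and 3.06% lower. The high fat diet level of Ddc was under background, and with such signals raised to background its difference was -0.99 and the count of lower members 0. The choice of members used this contrast, so nothing is read from those counts. Nearest to 2-fold among the rest were Htr2b, at 0.98, or 0.12 with its normal diet level raised to background, and Maob, at -0.89.

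Most of the pathway was near background. On each array 5 of the 9 members lay above background, 3 of them on both (Maoa, Maob and Slc18a1), while Tph1 and Slc18a2 were under it on both. Tph2 and Htr2b were above it on the high fat diet array alone, and Ddc and Slc6a4 on the normal diet array alone. A mean level at or above 5.44, the median of all probe sets other than controls, was reached by 4 members, Maoa, Maob, Slc18a1 and Tph2, the last only through its high fat diet level. Of these 4, 1 was 2-fold higher and 0 were 2-fold lower, where 3.28% and 3.29% of the 11778 genes past that level were.

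**Figure D1:**
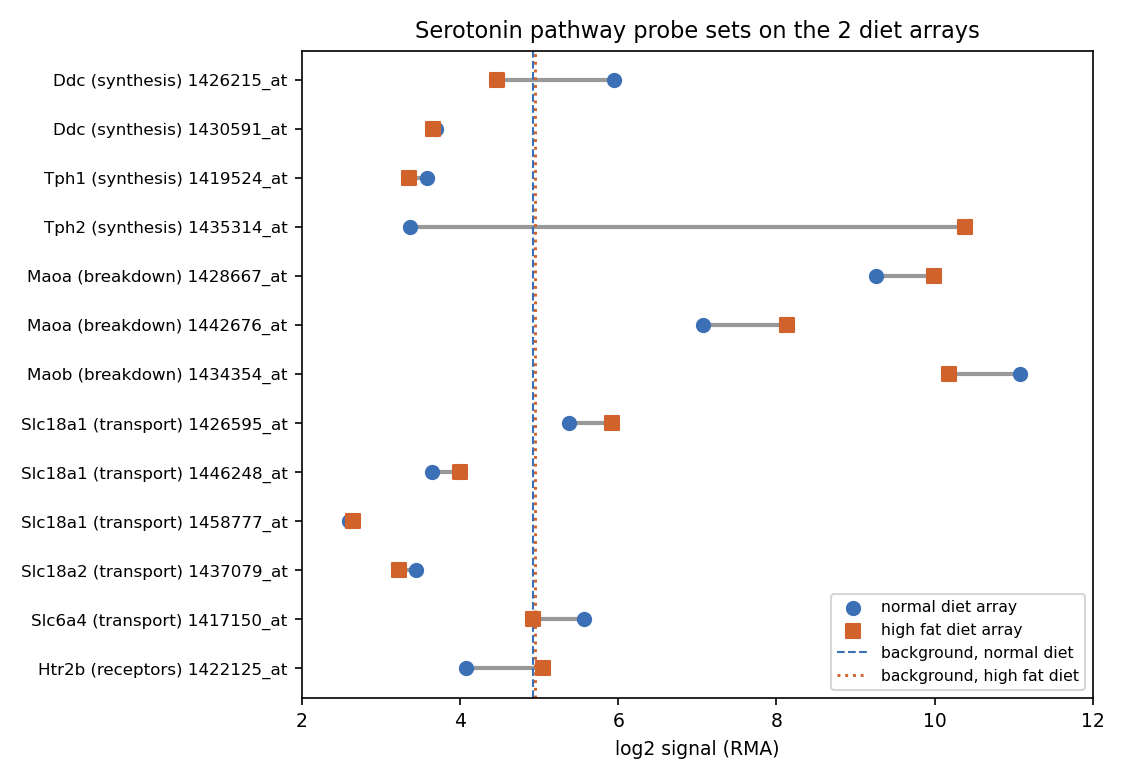
Log2 signal (x axis) of the 13 probe sets of 9 serotonin pathway genes on the normal diet array (blue circles) and the high fat diet array (orange squares), 1 array each, joined by a grey line. The dashed and dotted lines mark background (4.92 and 4.95). Tph2 crosses from 3.36 to 10.38, whereas Maoa and Maob lie above background on both arrays and Tph1, Slc18a2, the dimmer Ddc probe set and the 2 dimmer Slc18a1 probe sets lie under it.

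The other synthesis genes were not higher with Tph2. Tph1, the peripheral hydroxylase, had levels of 3.57 and 3.36, both under background, so no ratio is given. Ddc, the decarboxylase that turns 5-hydroxytryptophan into serotonin and is also abundant in liver and kidney, had 5.94 and 4.47 on its brighter probe set (1426215_at), a difference of -1.47. Its high fat diet level was under background, so the ratio is at least 1.99-fold lower. The dimmer Ddc probe set (1430591_at) had 3.70 and 3.66, under background on both arrays. Thus on the array where Tph2 was bright, the next enzyme of the pathway gave no signal above background on either probe set, and a low level cannot be told from none there.

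The hydroxylases need the cofactor tetrahydrobiopterin, and 7 of 8 genes that make or recycle it were measured. All 7 were above background on at least 1 array, and their median difference was 0.22. At 2-fold, 0 of them were higher or lower, beside 3.54% and 3.94% of all genes above background on at least 1 array. Gch1, which starts cofactor synthesis, had 5.69 and 5.91, and Pcbd1, which recycles it, had the highest difference, 0.66, followed by Pcbd2 at 0.49. Gchfr, the feedback regulator of Gch1, had the lowest difference, -0.63, with 5.28 and 4.66, the latter under background, followed by Pts, the second enzyme of the route, at -0.54. The recycling enzyme Qdpr had 11.97 on both arrays. Th, the tyrosine hydroxylase of catecholamine neurons and a relative of the Tph enzymes, was under background on both arrays (4.32 and 4.66).

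Both breakdown genes lay well above background on either diet, and they differed in opposite directions. Maoa, the oxidase that prefers serotonin and noradrenaline, had 9.26 and 9.99 on its brighter probe set (1428667_at), 1.65-fold higher on the high fat diet array. Its other probe set (1442676_at) had 7.07 and 8.13, 2.09-fold higher, so both probe sets pointed the same way and differed by little more than the SD between probe sets. Maob, the oxidase that prefers phenylethylamine, had 11.08 and 10.19, a 1.86-fold lower signal with the high fat diet. It has 1 probe set and therefore no second reading.

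Of the genes that act on the products of these steps or on serotonin itself, 6 of 8 listed were measured. Of those, 5 were above background on at least 1 array, with a median difference of -0.70. At 2-fold, 0 were higher and 2 lower, where 3.54% of the 13261 genes above background on at least 1 array were higher and 3.94% lower. The 2 were Aldh2, the aldehyde dehydrogenase that acts after the oxidases, with 12.42 and 11.31, a 2.15-fold ratio, and Inmt, which methylates indoleamines such as tryptamine, with 11.65 and 9.75, a 3.73-fold ratio. Tgm2, a transglutaminase that can attach serotonin to proteins, had 11.17 and 11.34, and Aanat, which leads to melatonin, had 5.86 and 6.15.

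Transport genes were dim. Slc6a4, the serotonin transporter of the plasma membrane, had 5.56 and 4.92, the latter just under background, a ratio of at least 1.53-fold lower. Slc18a1, the vesicular transporter of neuroendocrine cells, had 5.37 and 5.92 on its brightest probe set (1426595_at), 1.46-fold higher, with a normal diet level 0.45 above background. Its other probe sets had 3.64 and 4.0 (1446248_at) and 2.60 and 2.65 (1458777_at), all under background. Slc18a2, the vesicular transporter of monoamine neurons and mast cells, had 3.44 and 3.23, under background on both. None of the 3 reached 2-fold, where 2.63% of all 18193 genes were higher by that much and 3.06% lower.

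Of 7 other monoamine transporters 5 were measured and 3 were above background on at least 1 array, with a median difference of 0.12. At 2-fold, 0 of the 3 were higher or lower, beside 3.54% and 3.94% of all genes above background on at least 1 array. The 3 were Slc22a2, an organic cation transporter, at 5.67 and 6.34, the monoamine transporter Slc29a4 at 6.40 and 6.53 and the noradrenaline transporter Slc6a2 at 5.89 and 5.75. Slc22a3, an organic cation transporter that carries serotonin, was not analysed here.

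Htr2b, a receptor that signals through Gq, had 4.07 and 5.04. The second level was only 0.09 above background, which leaves a ratio of at least 1.09. The other serotonin receptor genes numbered 12, all measured, and 10 of them were under background on both arrays. The remaining 2, Htr1b, which couples to Gi, and Htr3a, a subunit of the ion channel receptor, had 5.89 and 6.04 and 6.04 and 6.17. None of the 12 was 2-fold higher or lower, where 2.63% of all 18193 genes were higher by that much and 3.06% lower.

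**Figure D2:**
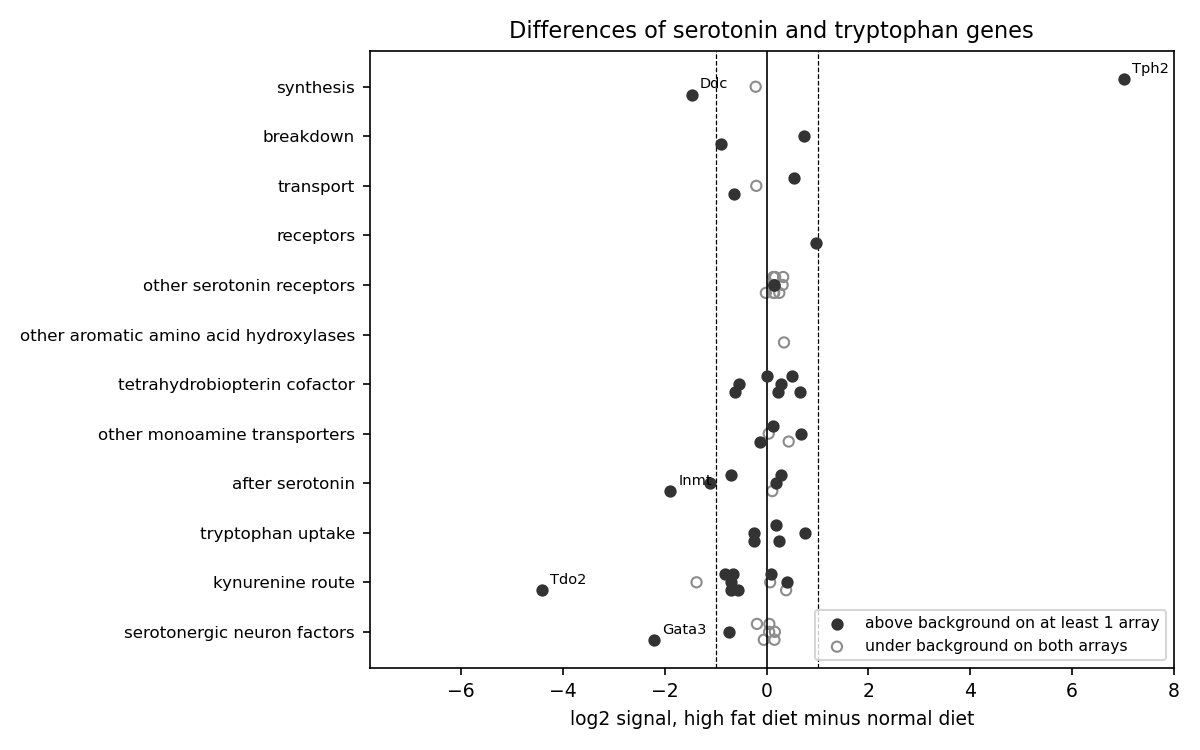
Difference in log2 signal, high fat diet minus normal diet (x axis), for each measured gene of the pathway lists (rows), by its brightest probe set. Filled points lie above background on at least 1 array, open points under it on both, and the dashed lines mark 2-fold. Tph2, at 7.02, is the only point to the right of the 2-fold line, while Ddc, Aldh2, Inmt, Tdo2 and Gata3 are the filled points to the left of it.

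Tryptophan, the substrate of both hydroxylases, is also used by the kynurenine route. Of 12 genes of that route 11 were measured and 8 were above background on at least 1 array, 2 higher and 6 lower, with a median difference of -0.68. At 2-fold, 0 were higher and 1 lower. Over all 13261 genes above background on at least 1 array, 3.54% were higher by that much and 3.94% lower. The 1 lower gene of the route was Tdo2, the tryptophan dioxygenase of liver, with 8.52 and 4.11, at least 11.9-fold lower. Haao, a later enzyme of the route, had -0.82, whereas Afmid, which acts after the dioxygenases, had 0.41 and Kyat1, a kynurenine aminotransferase, 0.08. Ido1 and Ido2, the other dioxygenases of the first step, were under background on both arrays. Hepatocyte markers stood beside these genes, with 14 of 15 lower by 2-fold or more, against the same 3.94% of genes. Their median difference was -5.58, and the summed linear signal over the list went from 46621.6 to 10260.7. Albumin, Alb, had 13.15 and 7.91. Ddc, Maob, Aldh2 and Inmt are expressed in liver too, and the part of hepatocyte RNA in their lower values was not tested.

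The 5 genes that carry tryptophan into cells were all above background on both arrays, with a median difference of 0.19 and 0 past 2-fold. Slc16a10, an aromatic amino acid transporter, was the highest at 0.75, followed by Slc7a5, the light chain of the large neutral amino acid transporter, at 0.25. The lowest were Slc7a8, another light chain, at -0.26 and Slc6a19, a neutral amino acid transporter of gut and kidney, at -0.25. Slc6a19 was near background, with 5.37 and 5.12, the latter only 0.16 above it. In all, the 8 lists of other pathway genes held 64 genes, of which 55 were measured and 32 were above background on at least 1 array. Of those 32, 0 were 2-fold higher and 4 were 2-fold lower, beside 3.54% and 3.94% of the 13261 genes above background on at least 1 array, with a median difference of -0.07 against 0.00 over those genes.

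Markers of the cells that make or store serotonin are given as a description. Tph2 had the highest difference of all 18193 genes, so no marker could share its size. Of 10 transcription factors of serotonergic neurons 8 were measured, and 6, among them Lmx1b, En1 and En2, were under background on both arrays. The others were Gata3, at least 2.06-fold lower, and Gata2, at -0.73, both also expressed in blood cells. Fev, which switches on Tph2 in serotonergic neurons, was not analysed here. Neuron markers numbered 19, of which 11 were above background on at least 1 array, 5 higher and 6 lower, with a median difference of -0.02. Of the 11, 2 were at least 2-fold higher and 1 lower, beside 3.54% and 3.94% of all genes above background on at least 1 array. The summed signal of the 19 was 851.1 and 969.4, in which the rise of Slc5a7 is included. Slc5a7, the choline transporter of cholinergic neurons, went from 3.49 to 7.71, at least 6.90-fold higher, and the synaptic vesicle gene Syp was 2.31-fold higher, whereas Snap25, of the synaptic release machinery, was at least 3.51-fold lower. The other 8 neuron markers, among them Tubb3 and Elavl4, were under background on both arrays, while Uchl1, at 6.15 and 6.13, Stmn2, at 6.52 and 5.97, Stmn3 and Elavl3 were above it on both.

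Mast cells hold Tph1 and Slc18a2. Of 12 mast cell markers 8 were above background on at least 1 array, with a median difference of -0.09 and summed signals of 842.4 and 892.0. Cpa3, the mast cell carboxypeptidase, had 7.58 and 7.67 and the chymase Cma1 7.32 and 7.06. The exception at 2-fold was Hpgds, a prostaglandin synthase that macrophages also express, with 4.58 and 6.96, at least 4.09-fold higher. Platelets carry serotonin taken up through Slc6a4, and 7 of 10 measured platelet markers were above background, with a median difference of 0.08. Pf4, platelet factor 4, had 10.58 and 10.57, while Ppbp, another platelet chemokine, was 2.03-fold lower. For comparison, 3.54% of all genes above background on at least 1 array were 2-fold higher and 3.94% lower.

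Enteroendocrine markers, 12 measured, were above background on at least 1 array in 4 cases, with a median difference of 0.20. Of these, Cck, a gut hormone, went from 3.94 to 5.33, at least 1.33-fold higher. Chgb, a granule protein, had 5.23 and 4.31, the latter under background, a difference of -0.92 and a ratio of at least 1.21-fold lower. Chga, the granule protein of enterochromaffin cells, was under background on both arrays (4.57 and 4.81). Pancreatic islet markers, 9 measured, were above background in 3 cases with a median difference of -0.07. Among them the glucose transporter Slc2a2, which liver also expresses, was 2.24-fold lower and the insulin gene Ins2 had 6.04 and 5.97. By the plain difference, 1 enteroendocrine marker (Cck) was 2-fold higher and 1 islet marker (Slc2a2) lower. Over all genes above background on at least 1 array, 3.54% were higher by that much and 3.94% lower.

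Of the 5 genes with levels most like those of Tph2, 4 are known as genes of the epididymis, the duct that lies against the gonadal fat of male mice. By distance in the plane of both log2 levels, over all genes on these 2 arrays, they were Lcn8 at 1.36, Lcn9 at 1.91, Lipf at 2.12, Cst12 at 2.18 and Adam7 at 2.23. Lcn8 and Lcn9 are lipocalins, Cst12 a cystatin and Adam7 a membrane protein of the epididymis, and Lipf is gastric lipase. Their levels were 4.26 and 9.37 for Lcn8, 4.32 and 8.73 for Lcn9, 3.44 and 8.27 for Lipf, 3.54 and 8.21 for Cst12, and 4.20 and 8.32 for Adam7. They were picked for levels close to those of Tph2, so their shared pattern is a description. The distance sets signals of different probe sets side by side, and it rests on 1 pool per diet.

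Epididymis markers were also read as a list. Of 15 listed genes 11 were measured, with a median difference of 4.03, and 9 were above background on at least 1 array. Of these 9, 8 were 2-fold higher or more and 0 lower, with a median difference of 4.12. Over all 13261 genes above background on at least 1 array, 3.54% were higher by that much and 3.94% lower. Most of the 9 passed background only through their high fat diet level, so their count and median are a description. The summed signal of the 11 measured genes was 220.4 and 3140.3, and the number above background went from 2 to 8. Gpx5, the secreted glutathione peroxidase of the epididymis, had 5.59 and 9.62, a 16.4-fold ratio. Lcn5 and Lcn12, lipocalins of the same organ, were under background on both arrays, and Defb1, a defensin of many epithelia, had 4.94 and 4.65. This list was drawn up knowing that several of its genes stood high on the high fat diet array. The part of epididymal RNA in the Tph2 signal was not tested.

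**Figure D3:**
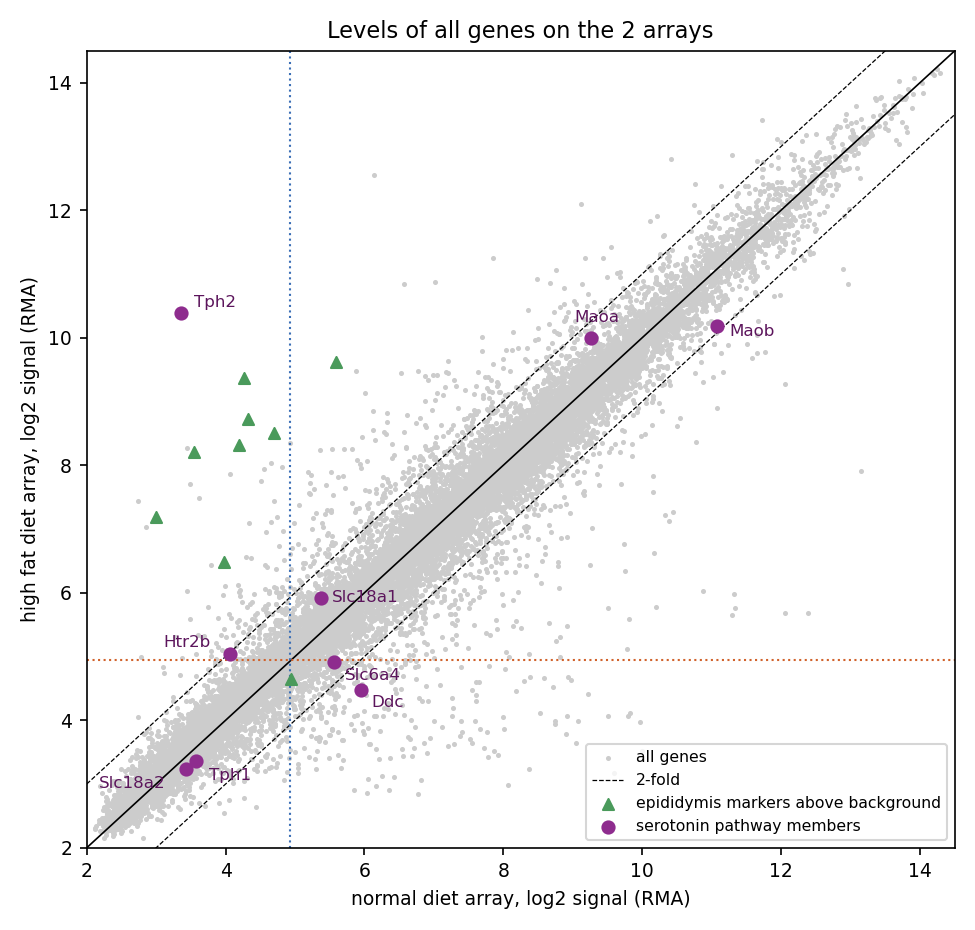
Log2 signal with the high fat diet (y axis) against the normal diet (x axis) for all 18193 genes (grey, brightest probe set), with the 9 measured members in purple and the 9 epididymis markers above background on at least 1 array in green. The solid line is equality, the dashed lines are 2-fold and the dotted lines mark background. Tph2 lies at the upper left with 8 epididymis markers, while of the other members only Ddc, at -1.47, lies outside the 2-fold lines.

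Macrophage, adipocyte and stromal lists are given as a description too. Macrophage markers, all 15 above background on both arrays, had a median difference of 0.75, with 7 at least 2-fold higher and 0 lower and a summed signal of 19912.8 and 36007.0. Cd68, a lysosomal glycoprotein, was 4.91-fold higher. Macrophages express Maoa, which was 1.65-fold higher, and the part of macrophage RNA in that value was not tested. Adipocyte markers had a median difference of -0.07 and a summed signal of 79504.3 and 79596.1. Of these 8 markers, 1 was 2-fold higher, the leptin gene Lep at 11.99 and 13.07, and 0 were lower by that much. Endothelial markers, whose cells also express Maoa, had a median of -0.61 with 0 of 8 past 2-fold. The medians of the other lists were 0.03 for glia and Schwann cells, -1.85 for skeletal muscle, -1.61 for smooth muscle and -1.01 for mesothelium. Of markers above background, 2 of 6 for glia and Schwann cells and 8 of 10 for skeletal muscle were at least 2-fold lower. So were 5 of 8 for smooth muscle and 4 of 8 for mesothelium, and 0 in these lists were 2-fold higher. Over all genes above background on at least 1 array, 3.54% were 2-fold higher and 3.94% lower.

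**Figure D4:**
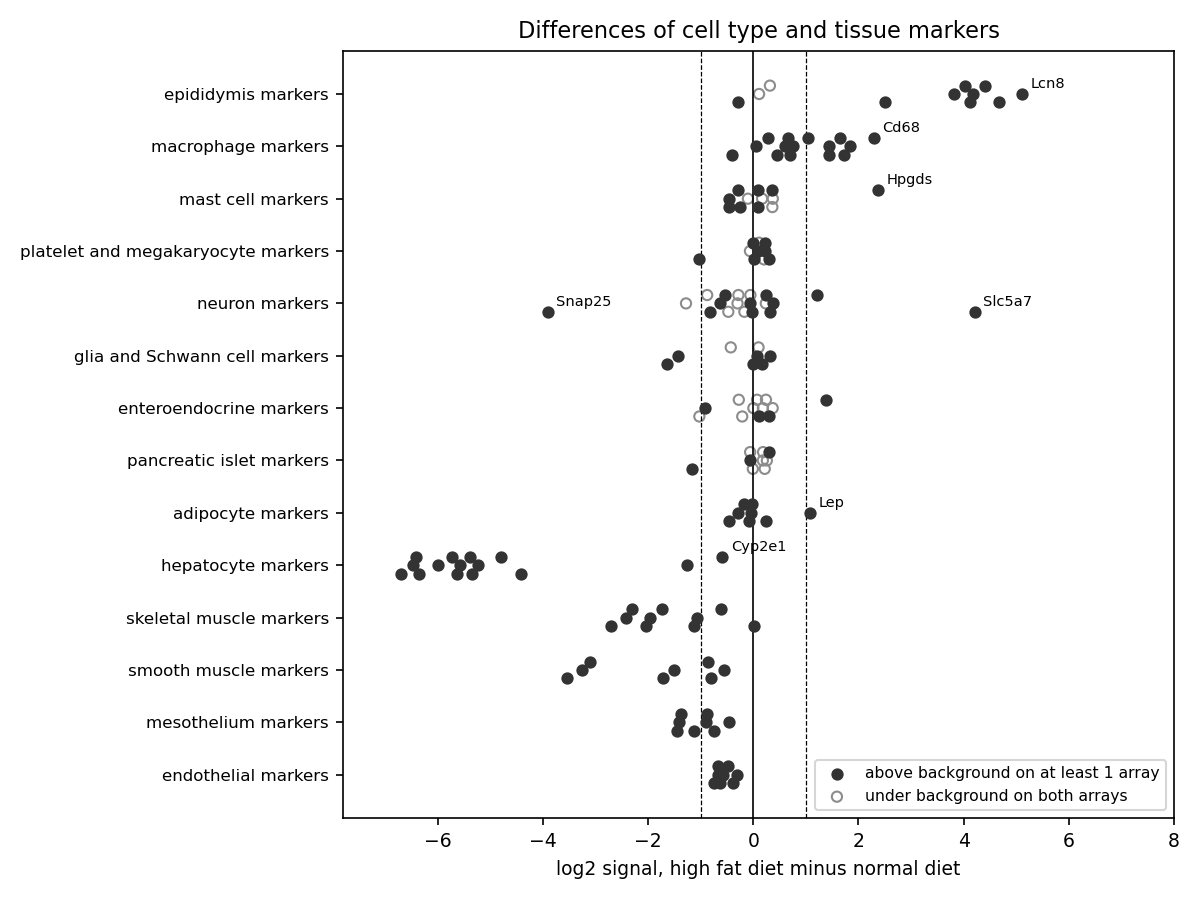
Difference in log2 signal, high fat diet minus normal diet (x axis), for each measured gene of the cell type and tissue lists (rows), by its brightest probe set. Filled points lie above background on at least 1 array, open points under it on both, and dashed lines mark 2-fold. Epididymis markers lie mostly around a median of 4.12 and hepatocyte markers around -5.58, while mast cell, platelet and neuron markers have medians near 0, with Slc5a7 and Snap25 at opposite ends of the neuron list.

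The genes beside Tph2 on its chromosome, in the gene order of the RefSeq table for GRCm38.p6, were examined after the values of Tph2 were known, as the nearest 3 protein-coding genes with a probe set on each side. On one side Trhde, a peptidase, was 2.39-fold lower, Atxn7l3b had -0.36, and the potassium channel gene Kcnc2, with 4.75 and 5.73, was at least 1.75-fold higher. On the other side Tbc1d15 had -0.26, Rab21, a small GTPase of endosomes, 0.23, and Tmem19 0.36. The 6 differences lay between -1.26 (Trhde) and 0.98 (Kcnc2). As Tph2 had the highest difference of all genes, 7.02, none of them could reach its size.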

How the data were processed

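Total RNA of adipose tissue was hybridised to 2 Affymetrix arrays, 1 per diet, each on a pool of 3 animals. The deposited log2 values were made by the authors with RMA, per the submitters' processing notes, with version and annotation not given in the sources used here. RMA corrects background and makes the arrays' distributions alike (medians 5.47 and 5.40), which removes any change in total RNA and shrinks differences of dim probe sets. The log2 scale was inferred from the range of the values. GEO's annotation of the platform, possibly outdated, gave the names: 34945 probe sets had 1 gene symbol, 932 several and 9160 none, beside 64 controls that were left out. Each gene was read from its brightest probe set, by the mean of both arrays. List genes under an older name were matched through the RefSeq table, and symbols with no probe set of their own were not analysed here.

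The count of arrays limits the precision, and with 1 per diet no test was run. Called means past 2-fold. The members, lists and rules were chosen with earlier results of these data known. Named genes are all members, up to 2 highest and 2 lowest differences of the other lists among genes above background, and the 5 genes nearest to Tph2. Other genes, such as defining markers and relatives of the members, were named after their values were seen. Alternatives changed the choice of probe set, the scaling, the background, the floor and the fold. Python 3.11.15 and pandas 2.3.3 were used.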

Additional observations from a re-analysis of the deposited data

How the results depend on the processing

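The difference of Tph2 was 5.46 with signals under background raised to it and moved by less than the SD between probe sets under the other scalings; it has 1 probe set, so the choice of probe set could not change it. Its ratio bound of 44.1 was 62.3, 31.3 and 23.3 with the 90th percentile, the 99th percentile and the other background genes, settings chosen after seeing the data. Members at least 2-fold lower went from 1 to 0 with the median over probe sets and to 0 with signals raised to background, since Ddc then had -0.76 and -0.99. At 1.5-fold, 3 members were higher and 3 lower. With the floor at the 75th percentile of all probe sets, 190 genes were at least 2-fold higher and 132 lower, against 386 and 388 with the floor at the median. With crystallin, hair keratin-associated and photoreceptor genes as background, whose 95th percentile was 5.84 and 5.82, 3 members were above it on the normal diet array in place of 5. Htr2b had 0.12 with signals raised to background. A change of sign was looked for only in the members past 2-fold, Tph2 and Ddc, and neither changed sign under any alternative run. Tph1 and Slc18a2, under background on both arrays, went from -0.22 and -0.20 to 0.03 with signals raised to background. No paired analysis was possible because each diet has 1 array, and no replicate could be left out. Signal over background limits Tph1, Slc18a1, Slc18a2, Htr2b, Slc6a4 and Ddc, whose levels lie near or under it. The normal diet level of Slc18a1, 5.37, was under the 99th percentile of background (5.41) and under the other background genes. Outside the members, Gch1 and Slc22a2, among others, lay under the other background genes with the normal diet. So did Slc6a2 with the high fat diet and Slc6a19 on both arrays.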
